A study of Mus musculus with 12 samples.

Results

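H4K12ac, the acetylation of histone H4 at lysine 12, was compared between non-neuronal brain nuclei of mice aged 20 months and 3 months. The comparison used 4 of the 12 libraries of the series. They were the H4K12ac chromatin immunoprecipitation (ChIP-seq) library of each age and the input library of each age, and were taken by the population, age and drug named in the labels. All were from wild-type C57B/6JRj mice given vehicle, 18 g cyclodextrin per litre of water, for 4 weeks. The remaining libraries came from neuronal nuclei and from mice of 20 months given the deacetylase inhibitor SAHA. SAHA was given at 0.67 g per litre with the same cyclodextrin, also for 4 weeks. Of these, 4 neuronal vehicle and 2 non-neuronal SAHA libraries are used below for comparison. The neuronal SAHA input enters only the alternatives with the mean of 6 inputs and with the 20-month SAHA inputs. With 1 library in each group, the ages could not be tested and no error between replicates exists. Age cannot be told apart from the preparation of a single library, and in bulk chromatin a shift in the mix of cell types cannot be told apart from less acetylation per cell. The sources used here do not say how many animals were pooled, if any.

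In histone acetylation, an acetyl group added to a lysine removes its positive charge, loosens the contact of the histone tail with DNA and offers a binding site to bromodomain proteins. Acetyltransferases write the mark and histone deacetylases remove it. Acetylation of the H4 tail is typical of nucleosomes that flank the start sites of active genes, on either side of a stretch that is poor in nucleosomes. Input is sheared chromatin sequenced without antibody, and it shows how readily DNA around a start site is recovered whatever its histone marks. Non-neuronal nuclei of the brain include those of astrocytes, oligodendrocytes, their precursors, microglia and blood vessel cells. The file headers call this population glia and name CA1, a field of the hippocampus.

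Each library was a mean signal at 4001 positions, about 2000 bp to each side of the transcription start site (TSS). Regions and bins below are named by rounded distances from the TSS. Such profiles hold no gene, so neither the cell type nor any single promoter could be checked. Signal is given below as the deposited value multiplied by 1000. Where the profile changes from one position to the next, it does so in whole steps, and the inverse of the step, rounded, was 52100000 for the young and 52800000 for the aged ChIP library. For the inputs it was 44900000 and 78000000. These are read numbers only if the authors divided by the number of reads and not also by the number of start sites, as a plain mean would. That was inferred and not stated. Counting errors, which rest on that step, were 0.0786% and 0.0828% for the ChIP means within 500 bp of the TSS, and 0.148% and 0.116% for the inputs. They cover counting alone and not the spread between animals or preparations.

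In the signal as deposited, whose scaling factor is not known here, H4K12ac was lower at 20 months at every position. The gap was widest just downstream of the TSS. At the upstream end, position -2000, the young ChIP library had a signal of 5.48 and the aged one 5.30. It climbed to 7.51 and 7.16 at 1000 bp upstream and to 10.9 and 10.1 at 500 bp upstream. An upstream shoulder followed, which is where the first nucleosome before the start site lies in many active genes. The shoulder peaked at 12.2 in the young library, at position -252, and at 11.2 in the aged one, at position -271. Close to the TSS the profile sagged to 12.1 at position -138 in the young library and to 10.9 at position -130 in the aged one. The summit lay downstream, where the first nucleosomes of the transcribed part lie in many active genes. It was 16.2 at 223 bp in the young library and 14.5 at 240 bp in the aged one. Nucleosome positions were not measured. Past the summit the signal was 12.9 and 11.9 at 500 bp, 8.15 and 7.77 at 1000 bp and 5.89 and 5.71 at the downstream end. The aged profile therefore had the same order of features as the young one, at a lower level throughout.

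**Figure D1:**
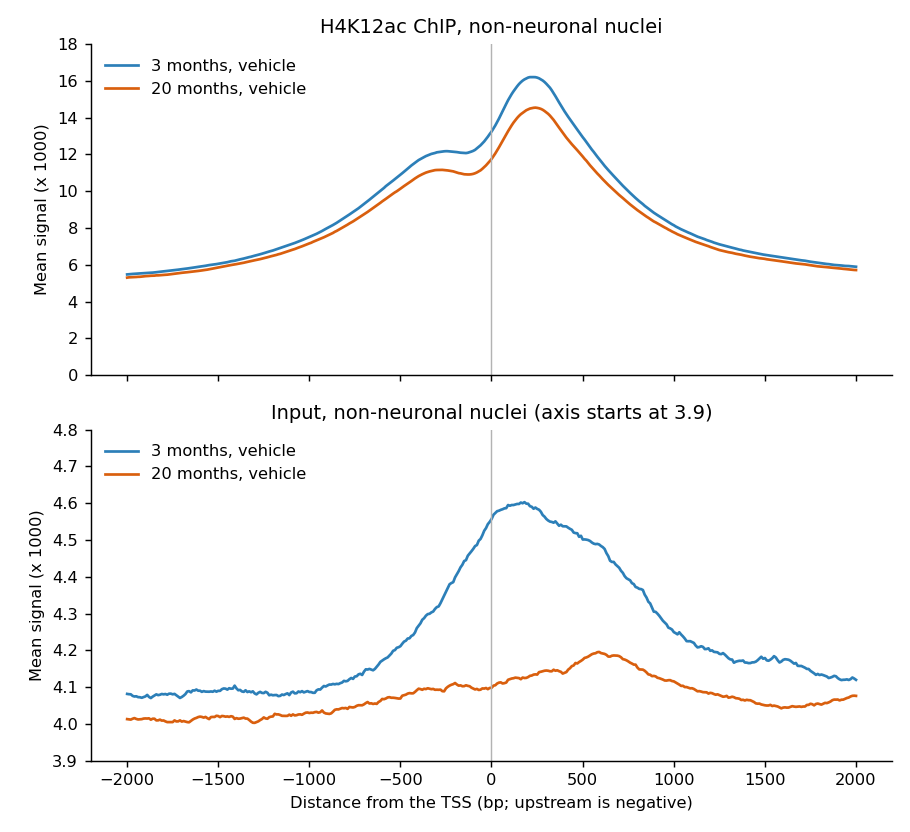
Mean signal (deposited value times 1000) against distance from the TSS for the H4K12ac ChIP libraries (top) and the inputs (bottom, axis starting at 3.9) of non-neuronal nuclei at 3 and 20 months, 1 library per line. The ChIP summit is 16.2 at 3 months and 14.5 at 20 months, and the input rises to 4.60 at 3 months against 4.20 at 20 months.

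The ChIP signal was lower at 20 months at 100% of the 4001 positions. It was lower by 10% or more at 387 of them, or 9.67%, which ran from 118 bp upstream to 269 bp downstream. In bins of 100 bp, 40 in all, the difference ranged from -2.88% between 1800 and 1900 bp downstream to -11.2% in the first 100 bp downstream. The single position with the greatest difference was 87 bp downstream, with 14.9 in the young and 13.2 in the aged library (-11.3%). On the upstream side the difference grew step by step toward the TSS. It was -3.41% between 2000 and 1500 bp, -4.04% between 1500 and 1000 bp, -5.86% between 1000 and 500 bp and -8.79% in the last 500 bp before the TSS. Downstream it shrank again, from -10.1% in the first 500 bp to -6.54%, -4.14% and -3.16% in the next regions of that size. The 95% counting interval lay below 0 in 40 of 40 bins.

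The outer ends of the profiles also differed. The flank, defined as the outermost 10% of positions on each side, had a ChIP signal of 5.89 in the young and 5.70 in the aged library (-3.21%). With ChIP divided by its own flank, the log2 age difference was -0.0029 in the outermost 500 bp upstream and 0.00082 downstream. That scaling largely sets these values. Whether the signal was lower at the outer positions thus depends on the scaling of the libraries. The signal that stood above this flank was 7.61 and 6.51 on average within 500 bp of the TSS, a difference of -14.4%. Summed from the TSS out to 1600 bp, the signal above the flank of the same side differed by -12.0% upstream and by -13.6% downstream. The ChIP summit was 2.75 times its flank in the young library and 2.55 times in the aged one.

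The inputs of the same nuclei also differed most just downstream of the TSS, over a narrower stretch on the upstream side. The young input climbed from 4.08 at position -2000 to a maximum of 4.60 at 178 bp downstream, and was back at 4.12 at the downstream end. The aged input began at 4.01, had a shallow local minimum of 4.09 at position -68, and reached its maximum of 4.20 only at 589 bp downstream. Within 500 bp of the TSS the young input stood 8.68% above its own flank and the aged input 2.00%. The aged input was lower at 100% of positions. Its difference from the young input was -1.68% between 2000 and 1500 bp upstream, -6.25% in the 500 bp upstream and -9.44% in the first 500 bp downstream. The widest gap among the bins, -10.3%, fell between 100 and 200 bp downstream, one bin beyond that of the ChIP libraries. Positions at or below the midpoint between flank and lowest value numbered 850 for the input difference, from -223 to 627, and 1065 for the ChIP difference, from -445 to 620. Between 1000 and 500 bp upstream the input differed by -2.09%, against -5.86% for ChIP. Over the 40 bins, the log2 age differences of ChIP and input followed each other with a Pearson r of 0.93, a description only, since neighbouring bins share reads and each age is a single library. The part that the input difference has in the ChIP difference was not tested.

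After division of each ChIP library by its input at each position, the age difference near the TSS was much closer to 0, and the greatest difference lay upstream. Within 500 bp the mean ratio of ChIP to input was 3.01 at 3 months and 2.97 at 20 months. Its log2 difference was -0.023 (95% counting interval -0.030 to -0.017), against -0.14 (-0.15 to -0.14) for ChIP alone and -0.12 (-0.12 to -0.11) for input alone. The ratio was below that of the young library at 100% of positions, by little at many of them. The greatest difference, -4.29%, was at position -574, on the outer slope of the upstream shoulder and not at the TSS. Among the bins it was greatest between 700 and 600 bp upstream, where the ratio was 2.33 and 2.24, a difference of -4.09%. At the ChIP summit, between 200 and 300 bp downstream, the ratio was 3.52 and 3.50, with a log2 difference of -0.0078 (95% counting interval -0.019 to 0.0032). In 6 of 40 bins the interval held 0. These were the bins between 100 and 500 bp and between 1500 and 1700 bp, all downstream.

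**Figure D2:**
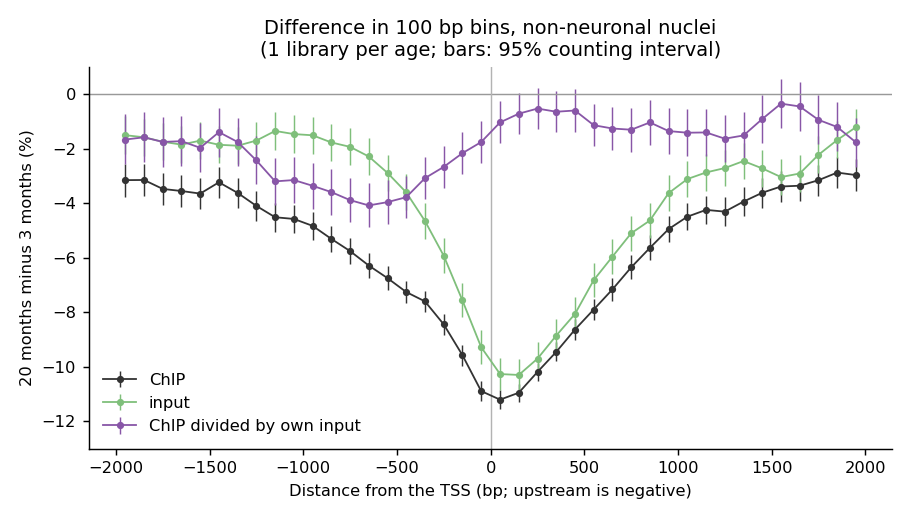
Percent difference between 20 and 3 months in 100 bp bins (points) against distance from the TSS, for ChIP, input and ChIP divided by its own input in non-neuronal nuclei, with 95% counting intervals (bars) and 1 library per age. ChIP reaches -11.2% and input -10.3% just downstream of the TSS, while the ratio is lowest, at -4.09%, between 700 and 600 bp upstream.

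By region, the ratio had a log2 difference of -0.025 between 2000 and 1500 bp upstream, -0.036 between 1500 and 1000 bp, -0.056 between 1000 and 500 bp and -0.039 in the last 500 bp before the TSS. Downstream it was -0.010 in the first 500 bp (95% counting interval -0.018 to -0.0021), -0.018 between 500 and 1000 bp, -0.020 between 1000 and 1500 bp and -0.014 beyond 1500 bp. With all libraries scaled to their flanks before division, the 4 downstream regions were at 0.010, 0.0025, 8.3e-05 and 0.0066 from the TSS outward. No counting interval was computed for scaled values. Before scaling, the interval between 1000 and 1500 bp downstream ran from -0.029 to -0.011 around -0.020. An interval of that extent around 0.0025, 8.3e-05 or 0.0066 would hold 0, so a change of sign there was not resolved. Such an interval also leaves out the counting error of the flank means. The sign of 0.010 in the first 500 bp downstream was therefore not settled either. The upstream regions were at -0.0052, -0.015, -0.036 and -0.019 under that scaling, from the upstream end to the TSS. An interval of that extent around -0.0052 would also hold 0. The outermost region on each side lies mostly in the flank, so this scaling itself sets its value near 0. In the unscaled ratio, each upstream region had a difference further from 0 than the downstream region at the same distance. The summit of the ratio was 3.53 at 3 months and 3.52 at 20 months, and its height above the flank was 2.10 and 2.11. Summed out to 1600 bp, the ratio above the flank differed by -5.27% upstream and by -0.856% downstream.

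The shape of the ChIP peak was then compared after each library had been set to 0% at its flank and 100% at its summit. On that scale the aged profile was lower right around the TSS and higher on both shoulders. In the last 100 bp before the TSS the signal was 65.4% of the height in the young and 62.9% in the aged library, the lowest difference of the 40 bins at -2.52 percentage points. Between 400 and 300 bp upstream it was 58.6% and 60.2%, a difference of 1.64 points and the highest of the bins. Between 500 and 1000 bp downstream it was 41.7% and 43.2%. The peak at 50% of the height covered 1131 positions in the young library, from -481 to 650, and 1165 positions in the aged one, from -501 to 664. Both edges of the aged peak thus lay further out, by 20 bp upstream and 14 bp downstream. After division by input the edges ran the other way: the peak of the ratio covered 1217 positions at 3 months, from -566 to 651, and 1159 at 20 months, from -515 to 644.

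**Figure D3:**
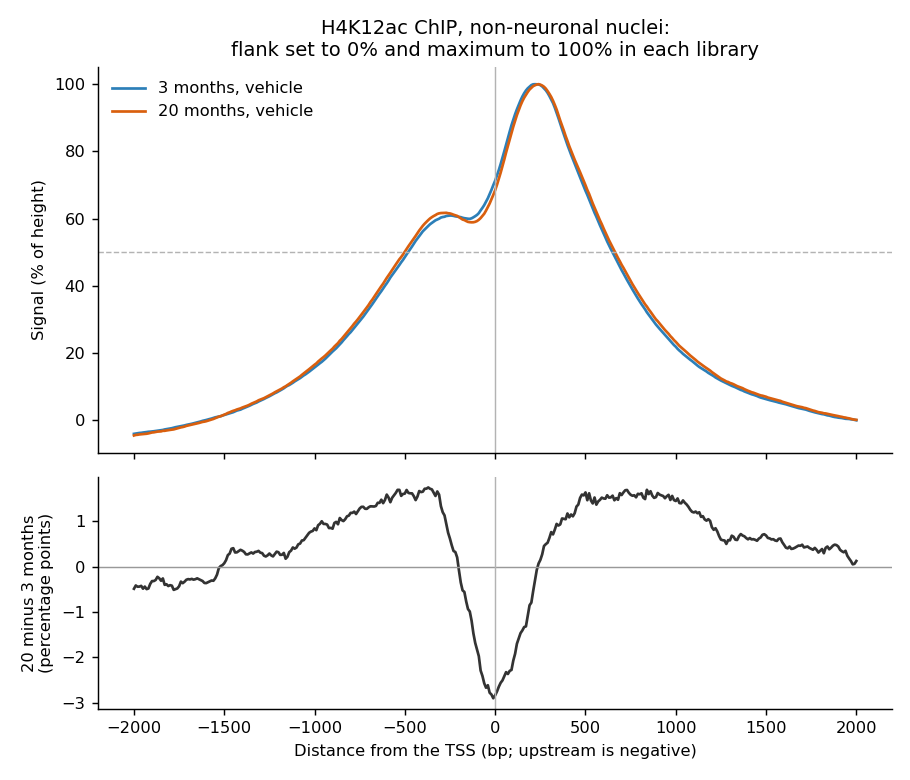
H4K12ac ChIP signal of non-neuronal nuclei in percent of the height between flank (0%) and summit (100%) of each library (top) and its difference between 20 and 3 months in percentage points (bottom), against distance from the TSS. The aged library is lower in the last 100 bp before the TSS, with a difference of -2.52 points, and higher between 400 and 300 bp upstream, by 1.64 points.

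The sag before the TSS, where nucleosomes are sparse in many active genes, came out differently with and without the input. In the ChIP libraries it lay 0.861% below the upstream shoulder in the young and 2.26% below it in the aged mice. In the ratio the depth was 3.42% in the young and 2.60% in the aged mice, so the order of the ages was the opposite. For scale, the counting error of a mean over 100 bp was between 0.130% and 0.227% in the ChIP libraries and between 0.209% and 0.282% in the inputs.

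The downstream side carried more H4K12ac than the upstream side in both libraries. The mean of the first 500 bp downstream was 1.24 times that of the 500 bp upstream at 3 months and 1.23 times at 20 months. At equal distances the ratio of the sides was highest between 200 and 300 bp, at 1.33 in the young and 1.30 in the aged library, and was 1.08 in both between 1500 and 2000 bp. The input was lopsided too in the young library, with a ratio of 1.07 between 500 and 750 bp, against 1.03 in the aged one.

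A straight line through the aged against the young ChIP signal over all positions had a slope of 0.854, and the profiles would be equal at a signal of 4.94. The flank signals of 5.89 and 5.70 lie above that level. A line through the positions within 1000 bp alone had a slope of 0.833 and an equal signal of 5.92, above both flank signals. The level of equal signal thus depends on the positions used. The aged signal departed from the line over all positions by -2.42% at position -12 and by 1.25% at 841 bp downstream, the extremes of the profile. By region it was -1.45% off the line between 2000 and 1500 bp upstream, 0.760% between 1000 and 500 bp upstream, -0.394% in the first 500 bp downstream and 1.04% between 500 and 1000 bp downstream. With both profiles divided by input the slope was 0.988. Neighbouring positions share reads, so no p-value goes with these fits.

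The neuronal vehicle libraries of the same ages gave a ChIP difference that was deeper at the TSS and, relative to its own depth, narrower. In neuronal nuclei the ChIP signal was lower at 20 months at 99.8% of positions. It was lower by 10% or more at 849 positions, or 21.2%, against 387, or 9.67%, in non-neuronal nuclei. At that fixed threshold the neuronal difference was thus the wider one. The first 100 bp downstream differed by -18.0% in neurons' nuclei, against -11.2% in non-neuronal ones. Between 2000 and 1500 bp upstream the order was the opposite, with -0.459% for neuronal and -3.41% for non-neuronal chromatin. Before division by input, the neuronal ChIP difference was further from 0 only between 413 bp upstream and 759 bp downstream, as judged from a running mean over 51 positions, and the non-neuronal one was further from 0 outside that stretch. Where it was midway between its flank and its lowest value or lower, the non-neuronal difference covered 1065 positions, from -445 to 620, and the neuronal one 862 positions, from -291 to 571. Within 500 bp the non-neuronal minus the neuronal log2 difference was 0.078 for ChIP alone (95% counting interval 0.073 to 0.083) and 0.34 after division by own input. Between 2000 and 1500 bp upstream it was -0.043 for ChIP alone (-0.053 to -0.034) and -0.0049 after division (-0.020 to 0.0098). After division the neuronal difference was the one further from 0 in the other 7 regions. The non-neuronal minus the neuronal value there was lowest, at 0.018 (0.0042 to 0.033), between 1500 and 1000 bp upstream, 0.046 between 1000 and 500 bp upstream, and 0.056 and 0.034 in the outer downstream regions. The difference between populations was not tested, with 1 library per group.

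The inputs of the populations went opposite ways. In the first 500 bp downstream the aged input differed from the young one by -9.44% in non-neuronal nuclei and by 11.3% in neuronal nuclei. Over the 40 bins, the age differences of ChIP and input had an r of -0.99 in neuronal nuclei, against 0.93 in non-neuronal nuclei, again as a description only. Within 500 bp, division by input thus took the age differences of the populations further apart.

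**Figure D4:**
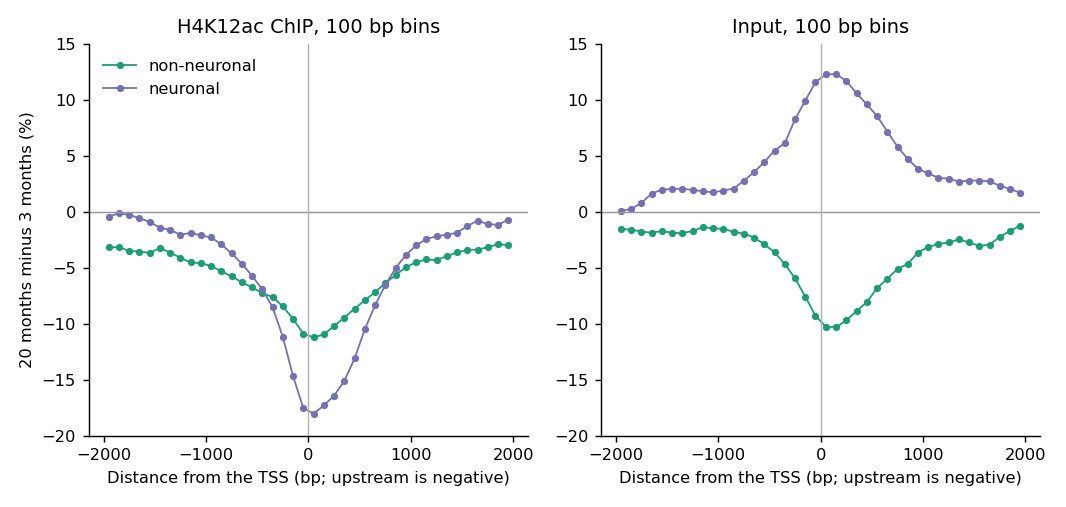
Percent difference between 20 and 3 months in 100 bp bins against distance from the TSS for H4K12ac ChIP (left) and input (right), in non-neuronal and neuronal nuclei, 1 library per age and population. The ChIP difference reaches -11.2% in non-neuronal and -18.0% in neuronal nuclei, while the inputs lie on opposite sides of 0.

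The other non-neuronal ChIP library of 20-month mice came from animals given SAHA. It gives no clean scale for libraries of one age, since drug and preparation cannot be told apart. Its ChIP signal was above that of the vehicle library of this age and the vehicle library was the lowest of the 3 non-neuronal ChIP libraries at 100% of positions. Within 500 bp the signals were 13.5 in the young, 12.2 in the aged vehicle and 12.9 in the aged SAHA library. The inputs were in another order, at 4.47, 4.11 and 4.67. The 20-month inputs thus lay 0.18 apart on the log2 scale, SAHA above vehicle, while the aged vehicle input was at -0.12 relative to the young one. These 20-month groups also differ in the drug. With the SAHA input in place of its own, the aged vehicle ChIP library gave a log2 age difference of -0.21 within 500 bp, against -0.023 with its own input.

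**Figure D5:**
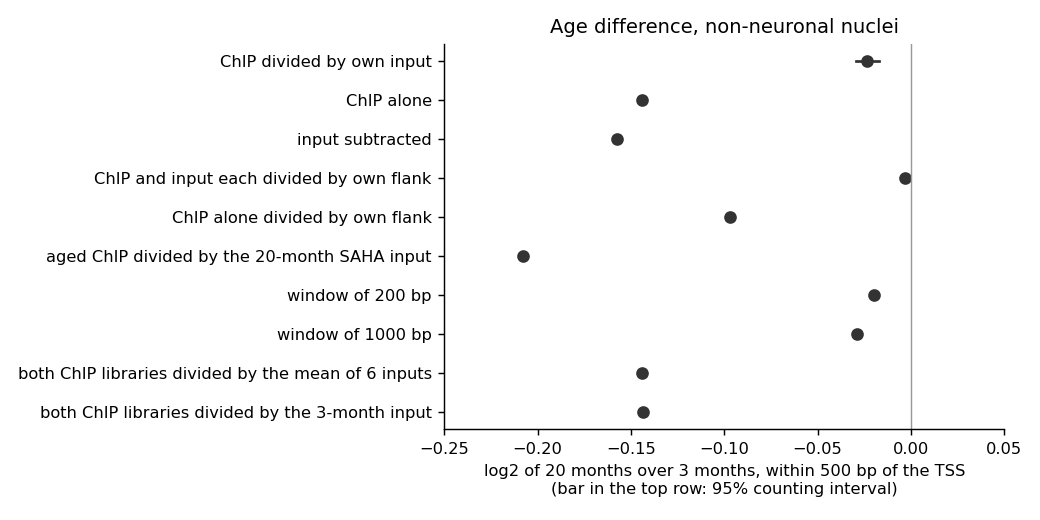
Log2 of the 20-month over the 3-month value within 500 bp of the TSS in non-neuronal nuclei under each treatment of the input, and in windows of 200 and 1000 bp, with the 95% counting interval of the main value in the top row. The values run from -0.21 with the 20-month SAHA input to -0.0032 where all libraries were scaled to their flanks first. An interval as wide as the main one would hold 0 around -0.0032. Rows with an input shared by both ages nearly repeat ChIP alone.

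Base composition changes along a part of this stretch, from 250 bp upstream to 50 bp downstream. The part ends short of the widest ChIP gap, at 87 bp downstream, and of the ChIP summits. In 32851 RefSeq promoter windows of 27025 mouse genes (GRCm38.p6), the share of G or C was 50.4% between 250 and 200 bp upstream and 56.7% in the first 50 bp downstream. CpG dinucleotides, the sites of DNA methylation and a hallmark of broadly active promoters, numbered 3.16 per 100 bases between 250 and 200 bp upstream, 5.12 in the last 50 bp before the TSS and 4.94 in the first 50 bp downstream. Over these 300 bp the young input went from 4.38 to 4.57 and the aged input from 4.10 to 4.11. The ChIP signal went from 12.2 to 13.7 at 3 months and from 11.1 to 12.1 at 20 months. Which start sites the authors averaged is unknown here, so these windows may not be the same set, and a part of base composition in the difference was not tested.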

How the data were processed

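CASAVA 1.8.2, Bowtie2 and build mm10 are named in the submitters' processing notes. What the authors deposited is a signal, marked as normalized in the file headers, with 1 mean at each position around the TSS. The sources used here give neither the scaling factor nor the start sites, nor how duplicate reads were treated. Chromatin fragments were near 300 bp, and 500 ng went into each precipitation with 0.5 µg antibody, per the labels' protocols.

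The main value was ChIP over own input at each position, averaged over a window, and age differences are log2 ratios of it. No test was possible with 1 library per group. All changes of signal between positions were whole multiples of 1 unit (tolerance 0.1), taken as 1 read. The length that each read covers in the profile, 300 bp, was taken from the autocorrelation and need not be the sequenced read length. Counting errors used these and the over-dispersion of the changes (1.61 to 1.64 in the 4 libraries), and the recovery was tested on simulated data. Reads shared by nearby start sites make these errors a lower limit. Named positions were the summit, shoulder, sag, edges and extremes among 8 regions and 40 bins. The comparison and the measures were chosen with earlier results of these data known. Python 3.11.15, NumPy 2.4.6 and Matplotlib 3.10.9 were used.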

Additional observations from a re-analysis of the deposited data

Results flagged for a closer look

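The inputs of non-neuronal nuclei were lower at 20 than at 3 months and those of neuronal nuclei were higher, in every region measured. These opposite directions were not tested, since each group had 1 library. The non-neuronal minus the neuronal log2 age difference of the input was -0.25 within 500 bp of the TSS and -0.12 over the whole profile. From the upstream end to the TSS, in regions of 500 bp, it was -0.038, -0.052, -0.073 and -0.21. From the TSS to the downstream end it was -0.30, -0.16, -0.083 and -0.066.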

How the results depend on the processing

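The 3-month input for both ages and the mean of the 6 inputs were alternatives chosen after seeing the data, as was flank scaling of the 4 middle regions. A log2 difference counted as moved beyond its 95% counting interval, and a position, width or slope beyond 10%. Of 37 alternative values of the non-neuronal age differences, 32 were below 0. Only 5 of the 37 stayed within the interval of their main value, while 27 moved and 5 reversed in sign. Some of the 37 nearly repeat ChIP alone or are largely set by the flank scaling, so the count of signs is not a measure of robustness. No paired analysis was possible because each group had 1 library.

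In the order within 500 bp, first 500 bp downstream, 500 bp upstream, outermost 500 bp upstream and outermost 500 bp downstream, the main log2 age differences were -0.023, -0.010, -0.039, -0.025 and -0.014. For ChIP alone they were -0.14, -0.15, -0.13, -0.050 and -0.046. With input subtracted they were -0.16, -0.16, -0.16, -0.12 and -0.075. With all libraries scaled to their flanks before division they were -0.0032, 0.010 (reversed), -0.019, -0.0052 and 0.0066 (reversed), and for ChIP over its own flank -0.097, -0.11, -0.086, -0.0029 and 0.00082 (reversed). The outermost regions lie mostly in the flank, so their values under both scalings are largely set by the scaling. Scaling to flanks before division moved the middle regions upstream to -0.015 and -0.036 and those downstream to 0.0025 and 8.3e-05 (reversed in sign only). No counting interval was computed for the scaled values, so none of the reversals of sign under flank scaling was resolved. With the 20-month SAHA input the main differences became -0.21, -0.23, -0.18, -0.057 and -0.069. With 200 bp the upstream value was -0.029. Within 500 bp, a shared input gave -0.14, both for the mean of 6 and for the 3-month input, since an input shared by both ages nearly cancels.

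The non-neuronal minus the neuronal difference, 0.34, was 0.078 for ChIP alone and with the mean of 6 inputs, 0.30 with input subtracted, 0.33 and 0.12 with the flank scalings, 0.028 with the 20-month SAHA inputs, and 0.41 and 0.24 with 200 and 1000 bp. The gain in peak width of 34 positions became -58 (reversed) after division by input, and the slope of the line 0.988. The cause of these changes was not tested.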
